A study of Mus musculus with 16 samples.

Results

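The comparison described here asks whether loss of Meis1 and Meis2 in heart muscle cells changed how the atria and ventricles of the same embryo differ from each other. For each of 8 mouse embryos taken at stage E15.5, the atrial value of a gene, as log2(CPM + 1), was subtracted from the ventricular value, where CPM is the count per megaread of the library. The 4 differences from double-knockout (dKO) embryos were then set against the 4 from control embryos, which uses 16 of the 16 libraries of the series. A positive value means that the ventricle-minus-atrium difference was higher in dKO embryos, and a negative value that it was lower. All 8 embryos carried floxed Meis1 and Meis2 alleles in the homozygous state (Meis1flox/flox; Meis2flox/flox). The 4 dKO embryos also carried the aMHC-Cre transgene (aMHC tg/wt), in which the alpha-myosin heavy chain promoter drives Cre recombinase in cardiomyocytes, and the 4 control embryos had no transgene (aMHC +/+). Presence of Cre and deletion of the genes therefore go together and cannot be told apart, and the promoter is active in cardiomyocytes, not in the other cells that a chamber holds. The outflow tract had been removed before the chambers were separated.

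Meis1 and Meis2 are homeodomain transcription factors of the TALE class, which bind DNA together with partner proteins and act in the patterning of limbs, blood and heart. Atrial and ventricular cardiomyocytes keep separate programmes of contractile proteins, ion channels and peptides. Atria are marked by Nppa, Myl7, Myl4 and Sln, and ventricles by Myl2, Myl3 and Irx4. A chamber difference can widen, narrow or turn its sign when a gene is deleted, and the direction alone does not say in which chamber the level moved, so the genotype difference within each chamber is given beside it.

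Recovered depth, in megareads, was 14.8 to 19.4 in the control atria, 14.3 to 19.3 in the dKO atria, 15.6 to 23.0 in the control ventricles and 7.88 to 14.3 in the dKO ventricles. Every dKO ventricle was shallower than every control ventricle (exact permutation test, two-sided p = 0.0286, the smallest that 4 against 4 can give). After thinning all libraries to the reads of the shallowest, 269 of the 350 genes called below were called again. The sample titles carry 3 numbers whose meaning the labels do not give. The first holds dKO embryo 1 alone, the second holds control embryos 1 and 2 with dKO embryos 2 and 3, and the third control embryos 3 and 4 with dKO embryo 4. The protocol in the labels speaks instead of 1 control and 1 dKO embryo from each of 4 litters. Within the second number 257 genes were called, 175 of the 350 among them. In dKO embryo 1 the summary values of several non-muscle marker lists lay apart from those of the other dKO embryos, and without it 444 genes were called, 300 of the 350 among them. The p-values rest on the spread between these embryos, whose litters the title numbers do not give. In limma's test, described below, that spread is moderated toward the spread of genes of similar level.

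Of 13950 genes tested, 350 (2.51%) were called, meaning that limma's moderated test of the dKO-minus-control change in the chamber difference had a Benjamini-Hochberg adjusted p under 0.05. The difference was higher in dKO embryos for 177 genes (1.27%) and lower for 173 (1.24%). At an unadjusted p under 0.05 there were 1832 of the 13950 genes, the background for the counts by list at that threshold below. The median change of all genes tested was -0.01 on the log2 scale. Among the called genes the median size of the change was 0.66 and the smallest 0.29, and 84 changed by at least 1, of which 50 were higher and 34 lower. For 344 of the 350 the 4 dKO values did not overlap the 4 control values, against 8.11% of all genes tested. The count rested in part on single embryos: it was 230 without control embryo 1 and 221 without control embryo 4. The count of genes with a lower difference fell to 98, 107, 102 and 101 without control embryo 1, 3 or 4 or dKO embryo 3.

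The chamber difference itself was common in both genotypes. In control embryos 6401 genes (45.9%) differed between ventricle and atrium at an adjusted p under 0.05, and in dKO embryos 6647 (47.6%). Of the 350 called genes, the difference kept its sign and grew in 149 (42.6%, against 44.4% of all genes), kept its sign and shrank in 99 (28.3%, against 38.4%) and turned its sign in 102 (29.1%, against 17.2%). Among the 177 genes with a higher difference, 103 were called atrial, 51 ventricular and 23 neither in the controls. In the dKO embryos 45 of these 177 were called atrial, 99 ventricular and 33 neither. Among the 173 with a lower difference, the controls had 71 atrial, 75 ventricular and 27 uncalled genes, and the dKO embryos 113 atrial, 32 ventricular and 28 uncalled. Both sets were chosen by the direction of the change, so a shift of these calls in that direction follows from the choice. The counts describe the sets and test nothing.

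**Figure D1:**
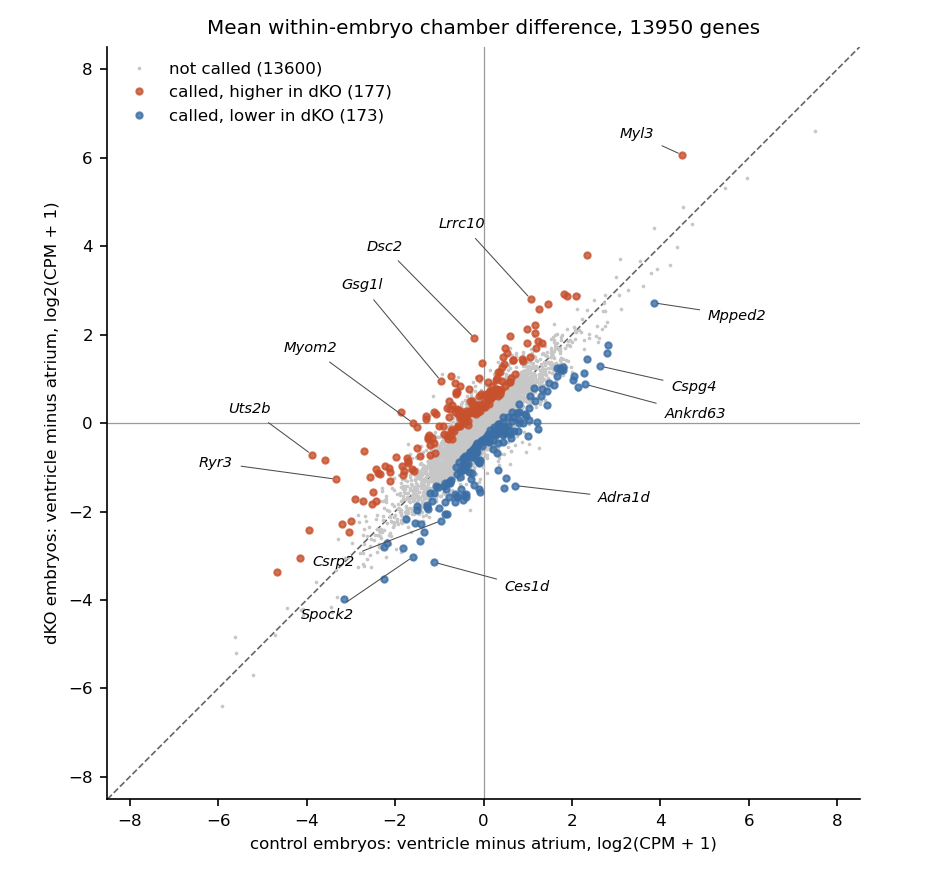
Mean ventricle-minus-atrium difference, log2(CPM + 1), of 13950 genes in the 4 control embryos (x axis) and the 4 dKO embryos (y axis), with the line of equality dashed. The 177 genes called with a higher difference lie above the line and the 173 with a lower difference below it, while Myl3, at 4.49 and 6.06, and Mpped2, at 3.85 and 2.72, stay ventricular in both genotypes.

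Each targeted gene was lower in dKO embryos in a different chamber, Meis1 in atria and Meis2 in ventricles, so that their chamber differences moved in opposite directions. Meis1 (ENSMUSG00000020160, GRCm38 chromosome 11, 18879817 to 19018985, minus strand) had 39.1, 37.9, 40.7 and 43.9 CPM in the control atria and 25.9, 25.0, 22.9 and 30.5 CPM in the dKO atria. In the ventricles it had 45.6, 41.5, 36.2 and 42.8 CPM in controls and 43.4, 41.9, 40.4 and 37.8 CPM in dKO embryos. The atrial groups did not overlap and the ventricular groups did. Its chamber difference was therefore close to 0 in controls (0.04) and 0.64 in dKO embryos, a change of 0.60 (SE 0.12, adjusted p = 0.0146). Meis2 (ENSMUSG00000027210, chromosome 2, 115863064 to 116065839, minus strand) had 22.8, 27.8, 25.4 and 25.5 CPM in the control atria and 25.3, 25.1, 26.5 and 29.2 CPM in the dKO atria. In the ventricles it had 40, 35.4, 37.9 and 43.6 CPM in controls and 26.9, 20.5, 21.7 and 24.3 CPM in dKO embryos. Here the ventricular groups did not overlap and the atrial groups did. The Meis2 difference went from 0.61 to -0.18, a change of -0.79 (SE 0.12, adjusted p = 0.00269). An exact permutation test over the 8 embryos gave a two-sided p of 0.0286 for each gene, the smallest 70 arrangements allow. The Meis1 call was lost without control embryo 3, control embryo 4 or dKO embryo 3 (adjusted p = 0.0587, 0.0627 and 0.0624) and with thinned reads (0.0533). Each value sums reads from all exons, and the deleted part of either gene is not given in the sources used here. A partial loss of reads is therefore no measure of how many cells lost the protein. As a check of the label, Meis1 was lower in the dKO atria (log2 -0.62, adjusted p = 0.00135) but not called in the dKO ventricles (-0.02, 0.95). Meis2 was lower in the dKO ventricles (-0.73, 0.0011) but not called in the dKO atria (0.06, 0.726).

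Meis1 and Meis2 were the only called members of the TALE homeobox list, of which 10 of 11 genes were tested.

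Most of the changes in chamber difference came with a change in the atrium. The genotype difference between dKO and control embryos was larger in size in atria than in ventricles for 309 of the 350 called genes and larger in ventricles for 41. Over these 350 genes its median size was 0.64 in atria and 0.16 in ventricles, against 0.11 and 0.08 over all genes tested. Tested chamber by chamber, 1042 of all genes (7.47%) differed between genotypes in atria and 279 (2%) in ventricles. Among the 350, 245 differed in atria but not ventricles, 22 in ventricles but not atria, 40 in both and 43 in neither. A call in 1 chamber and not in the other is no test by itself; the change in the chamber difference is that test. The dKO atria were called lower for 143 of the 177 genes with a higher difference, and called higher for 140 of the 173 with a lower difference. In ventricles the dKO level was called higher for 16 and lower for 25 of those 177, and called lower for 13 and higher for 8 of those 173. Genes that moved without a call are not in these counts. Both sets were chosen by the direction of a change computed from these same values. An atrial fall in the first set and an atrial rise in the second follow in part from that choice, so these counts test nothing. These are whole-tissue samples, so fewer cells of a type and less RNA per cell cannot be told apart.

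**Figure D2:**
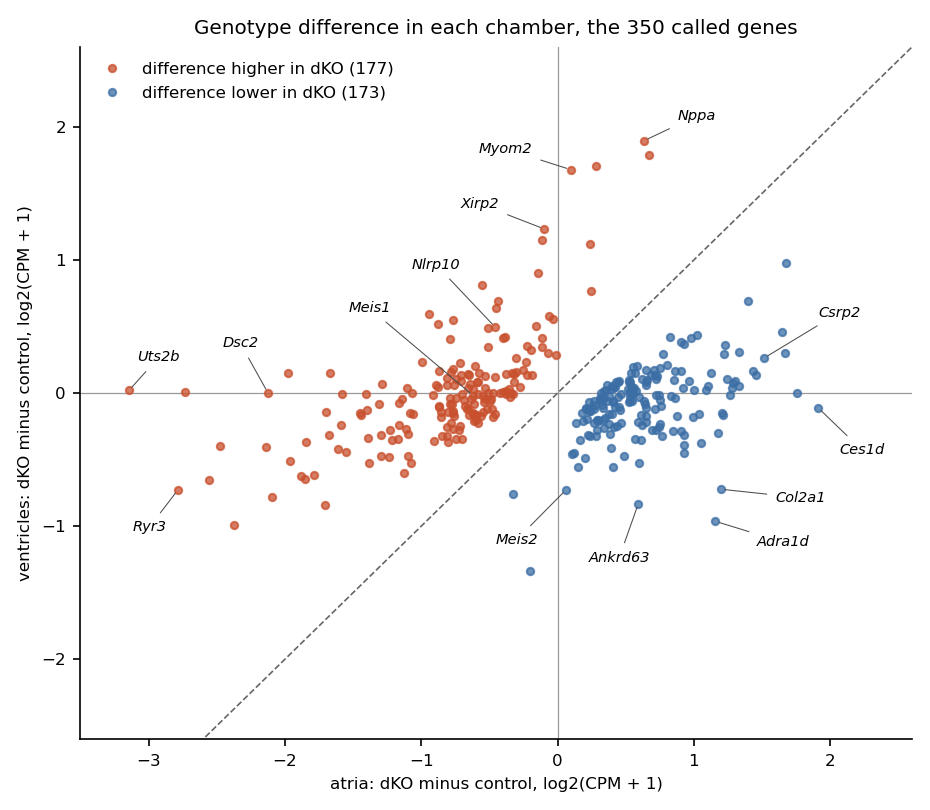
Genotype difference (dKO minus control, log2(CPM + 1)) in atria (x axis) and ventricles (y axis) for the 350 called genes, with equal differences on the dashed line. Most points spread along the horizontal axis, as for Uts2b (-3.14 in atria, 0.02 in ventricles), and a smaller set, with Myom2 and Nppa, lies high on the vertical axis.

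The largest positive change belonged to a group of genes that were atrial in control embryos and much lower in the dKO atria. Uts2b, which encodes a urotensin peptide, had 16.9, 13.2, 11.1 and 17.5 CPM in the control atria and 1.6, 0.14, 0.66 and 0.88 CPM in the dKO atria. All 8 ventricles held at most 0.14 CPM, under the floor of 3 reads (0.110 to 0.312 CPM) in each library. The difference went from -3.88 to -0.71, a change of 3.16 (SE 0.28, adjusted p = 4.07e-05). Ap3b2, a subunit of the neuronal AP-3 sorting complex, had 11.2, 10.9, 16.9 and 14.5 CPM in the control atria against 0.41, 0.83, 1.02 and 2.93 CPM in the dKO atria, and at most 0.36 CPM in any ventricle. The difference changed by 2.74 (SE 0.31, adjusted p = 0.000249). Dpp6, an accessory subunit of voltage-gated potassium channels, had 8.11 to 10.9 CPM in the control atria and 0.24 to 1.88 CPM in the dKO atria, with a change of 2.07. Cckar, a cholecystokinin receptor, had 3.82 to 6.28 CPM in the control atria and 0.35, 0.14, 0.42 and 1.13 CPM in the dKO atria, with a change of 2.12. Uts2b, Ap3b2 and Dpp6 were still called atrial in dKO embryos (adjusted p = 0.0091, 0.00594 and 0.0116). Where a chamber sits near 0, the size of a change on this scale is set by the pseudocount. Of the 350 called genes, 25 had a group mean under 1 CPM, and the 3 tests on recovered reads (edgeR, DESeq2 and limma-voom) all called 7 of these, against 267 of the other 325. Uts2b was not called by edgeR or DESeq2 (adjusted p = 0.273 and 0.0936), Ap3b2 not by edgeR (0.0529), and Cckar and Dpp6 by none of the 3 (0.0749 to 0.102 and 0.101 to 0.164).

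At higher levels the pattern was carried by Ryr3, a ryanodine receptor that releases calcium from the sarcoplasmic reticulum (ENSMUSG00000057378, chromosome 2, 112631355 to 113217096, minus strand). Ryr3 had 79.0, 67.2, 71.5 and 72.0 CPM in the control atria and 10.7, 7.31, 12.2 and 8.98 CPM in the dKO atria. Its ventricular levels were 6.55, 5.50, 7.36 and 5.91 CPM in controls and 3.18, 3.07, 3.15 and 4.36 CPM in dKO embryos. Both chambers were lower in every dKO embryo than in every control embryo, and the atrium fell further. The atrial difference was -2.78 (adjusted p = 1.24e-06), the ventricular -0.73 (0.0184), and the chamber difference changed by 2.06 (SE 0.17, adjusted p = 3.05e-05). Tmem163, a zinc-binding membrane protein of vesicles, stayed atrial: its difference was -3.95 in controls and -2.42 in dKO embryos, with 66.2 to 71.4 CPM in the control atria and 34.7 to 37.0 CPM in the dKO atria.

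Another group turned from atrial to ventricular. Gsg1l, an auxiliary protein of AMPA receptors, had 58.6, 57.6, 41.2 and 60.6 CPM in the control atria and 8.13, 7.88, 8.51 and 8.79 CPM in the dKO atria. Its ventricles had 27.2, 25.7, 30.3 and 26.1 CPM in controls and 17.1, 16.5, 18.9 and 15.6 CPM in dKO embryos. The difference was -0.96 in controls and 0.95 in dKO embryos (change 1.91, SE 0.15, adjusted p = 2.91e-05). Dsc2, a desmosomal cadherin of the intercalated disc, had 50.3, 40, 40.4 and 38 CPM in the control atria and 9.43, 8.4, 7.67 and 10 CPM in the dKO atria. Its ventricles did not separate by genotype, with 34.8 to 38.7 CPM in controls and 35.0 to 38.7 CPM in dKO embryos. The difference went from -0.20 to 1.92, and the change of 2.12 (SE 0.11, adjusted p = 4.08e-07) was not lost in any of the settings tried. Among the other genes that turned sign and were called in both genotypes, those with the smallest adjusted p were Entpd5, Pde4a and Syk, with changes of 0.92, 1.27 and 1.10, and in the other direction Chst11, with -0.85. Entpd5 is a nucleotidase of the endoplasmic reticulum, Pde4a a cAMP phosphodiesterase, Syk a tyrosine kinase and Chst11 a chondroitin sulfotransferase. In all, 39 called genes turned sign with a called difference in both genotypes. The share of all genes that meet both conditions was not computed. With or without a called difference, 29.1% of the called genes turned sign, against 17.2% of all genes tested. Nav3 and Sox3 were among these 39, going from -0.75 to 1.07 and from -0.64 to 0.91. Adam11 went from -1.31 to 0.17, which was not called in dKO embryos.

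A further group was ventricular in controls and became more so, with a fall of the low atrial level. Myl3 (ENSMUSG00000059741, chromosome 9, 110741861 to 110769798, plus strand), the essential light chain of ventricular myosin, had 116, 134, 88.4 and 133 CPM in the control atria and 59.1, 34.3, 31.3 and 33.1 CPM in the dKO atria. Its ventricles had 2566 to 2694 CPM in controls and 2327 to 2819 CPM in dKO embryos, which overlapped. The difference went from 4.49 to 6.06 (change 1.57, SE 0.21, adjusted p = 0.000787). Lrrc10 (ENSMUSG00000060187, chromosome 10, 117045341 to 117046768, plus strand), a leucine-rich repeat protein of the cardiac Z-disc region, had 24.3, 24.7, 20.9 and 30.7 CPM in the control atria and 6.44, 5.12, 3.85 and 4.43 CPM in the dKO atria. Its ventricles fell by less, from 51.5 to 56.5 CPM in controls to 39.1 to 41.1 CPM in dKO embryos. The change was 1.73 (SE 0.15, adjusted p = 3.16e-05). Lpar3, a receptor for lysophosphatidic acid, showed the same order of levels, with a difference of 2.35 in controls and 3.80 in dKO embryos.

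The rise was in the ventricle for a smaller set. Myom2 (ENSMUSG00000031461, chromosome 8, 15057653 to 15133541, plus strand), which encodes the M-band protein myomesin 2, had 74.7, 94.6, 58.7 and 86.7 CPM in the control ventricles and 262, 273, 224 and 245 CPM in the dKO ventricles. The atria overlapped, with 202 to 260 CPM in controls and 209 to 281 CPM in dKO embryos. A gene that was atrial in controls (-1.59) thus had no chamber difference in dKO embryos (0.00), a change of 1.58 (SE 0.09, adjusted p = 1.16e-06). Nppa (ENSMUSG00000041616, chromosome 4, 148000722 to 148002079, plus strand), the atrial natriuretic peptide, had 834, 573, 956 and 615 CPM in the control ventricles and 2518, 2593, 2672 and 3108 CPM in the dKO ventricles. In the atria it had 4608, 3876, 3185 and 3640 CPM in controls and 6604, 5490, 6427 and 5160 CPM in dKO embryos. Nppa rose in both chambers, by 0.63 in atria (adjusted p = 0.0184) and 1.90 in ventricles (3.36e-05), and the change in the difference was 1.26 (SE 0.20, adjusted p = 0.00312). With a robust prior variance the Nppa call was lost (adjusted p = 0.0562). Xirp2, an actin-binding protein of the intercalated disc, had 2.62 to 4.50 CPM in the control ventricles and 6.85 to 15.2 CPM in the dKO ventricles. Its difference rose by 1.33, and within the 4 embryos of the second title number it was not called (0.97, adjusted p = 0.105).

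**Figure D3:**
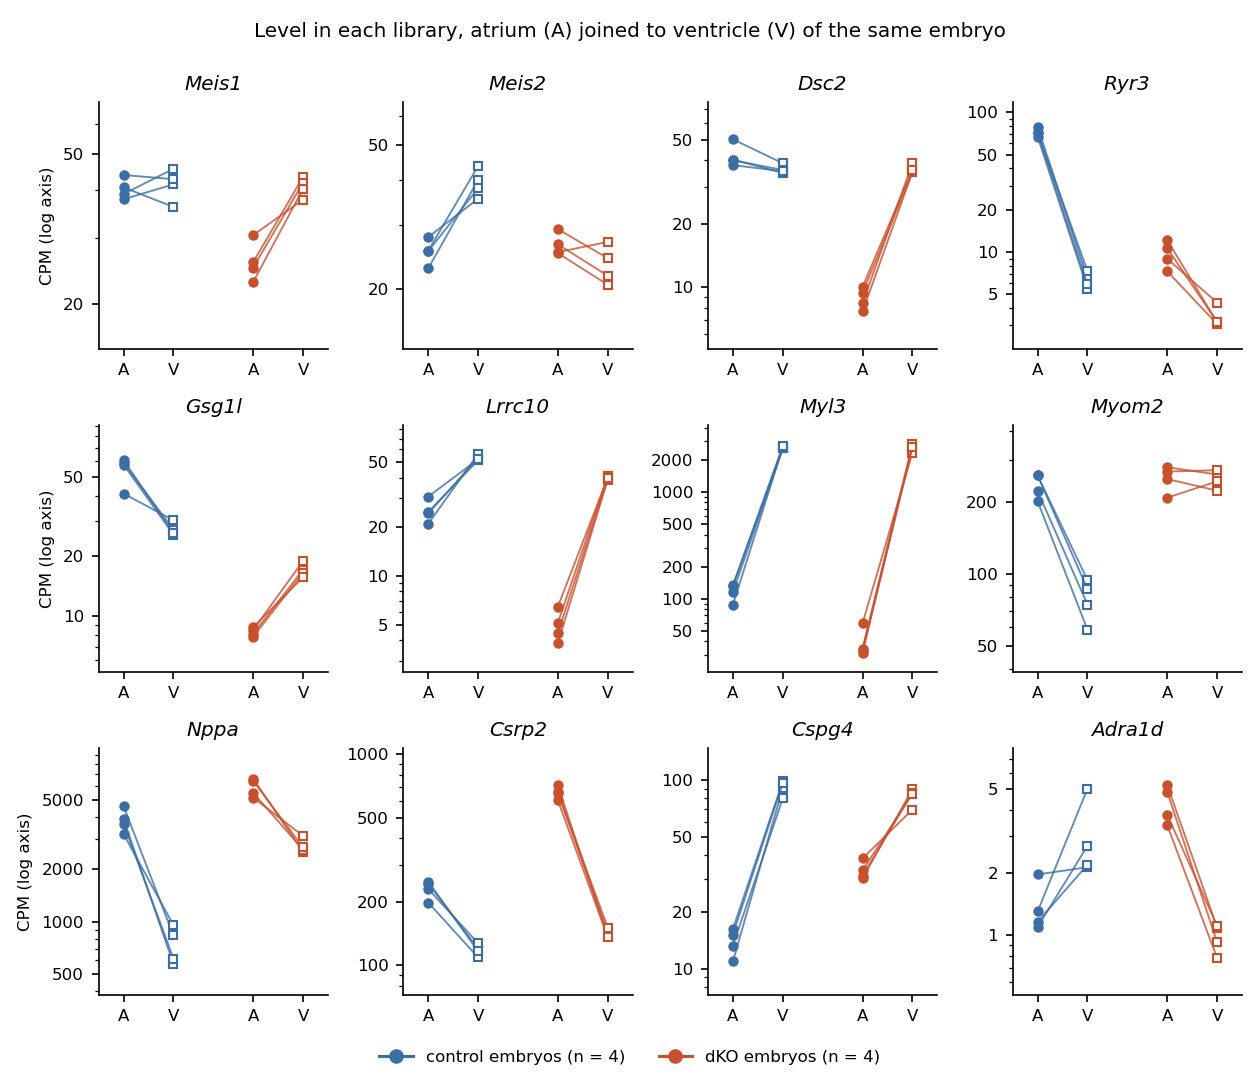
CPM on log axes of 12 genes in all 16 libraries, with the atrium (A, filled circles) joined to the ventricle (V, open squares) of the same embryo, 4 control embryos in blue and 4 dKO embryos in red. Dsc2 and Lrrc10 differ between genotypes mainly at the atrial end of the lines, Myom2 at the ventricular end, and the lines of Gsg1l and Adra1d change their slope from one sign to the other.

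Among genes with a lower difference, the largest group rose in the dKO atria. Csrp2 (ENSMUSG00000020186, chromosome 10, 110919789 to 110939622, plus strand), a LIM-domain protein of smooth muscle and early cardiac tissue, had 244, 198, 230 and 249 CPM in the control atria and 653, 711, 604 and 662 CPM in the dKO atria. Its ventricles had 109 to 127 CPM in controls and 136 to 151 CPM in dKO embryos. The atrial rise was 1.51 (adjusted p = 2.2e-06), the ventricular 0.26 (0.0276), and the difference changed by -1.25 (SE 0.08, adjusted p = 2.38e-06). Spock2, a secreted proteoglycan, had 31.6, 31.2, 40.4 and 37.5 CPM in the control atria and 77.6, 73.6, 80.2 and 63.9 CPM in the dKO atria. Its difference went from -1.59 to -3.02 (change -1.43, SE 0.15, adjusted p = 0.000138). Dner, a Notch-binding membrane protein, and Ces1d, a carboxylesterase, were also atrial, with 3.93 to 5.98 and 0.82 to 2.72 CPM in the control atria and 13.5 to 17.3 and 7 to 9.92 CPM in the dKO atria. Their ventricles held at most 0.65 and 0.39 CPM. On the log2(CPM + 1) scale the changes were -1.27 and -2.02, but neither was called by any of the 3 tests on recovered reads (adjusted p = 0.515 to 0.756 and 0.14 to 0.351). For Dner those tests gave -0.84 to -0.87 and for Ces1d -3.41 to -4.30. Ces1d has near-identical paralogs, so how its reads were shared among them is uncertain.

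A few ventricular genes lost part of their enrichment as the atrial level rose. Cspg4 (ENSMUSG00000032911, chromosome 9, 56865033 to 56899870, plus strand), the NG2 proteoglycan carried by pericytes, had 10.9, 13.3, 16.3 and 15.2 CPM in the control atria and 30.1, 38.5, 31.1 and 33.2 CPM in the dKO atria. Its ventricles overlapped, with 80.0 to 98.4 CPM in controls and 69.8 to 89.6 CPM in dKO embryos. The difference went from 2.64 to 1.28 (change -1.36, SE 0.14, adjusted p = 0.000135). Plppr1, a phospholipid phosphatase-related membrane protein, and Abca4, a lipid transporter, lost their ventricular difference, from 1.24 to -0.14 and from 1.01 to -0.30. Ankrd63 kept 2.30 in controls and 0.88 in dKO embryos, and here the ventricular fall was called (-0.83, adjusted p = 0.0169) and the atrial rise was not (0.59, 0.103). Col2a1, F13a1 and Ssc5d turned from slightly ventricular to atrial. Col2a1, a fibrillar collagen of cartilage and valves, had a difference of 0.32, 0.41, 0.39 and 0.72 in the control embryos and -1.17, -2.22, -1.09 and -1.37 in the dKO embryos. F13a1, the A subunit of coagulation factor XIII, which is carried by macrophages among other cells, went from 0.33 to -1.05. Ssc5d, a secreted scavenger receptor-like protein, went from 0.52 to -1.24. Slco5a1, Vwc2 and Nrsn2 had changes of -1.37, -1.28 and -1.28 at levels under 10 CPM, and lost their call in 5 of 23, 13 of 23 and 8 of 23 other settings.

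**Figure D4:**
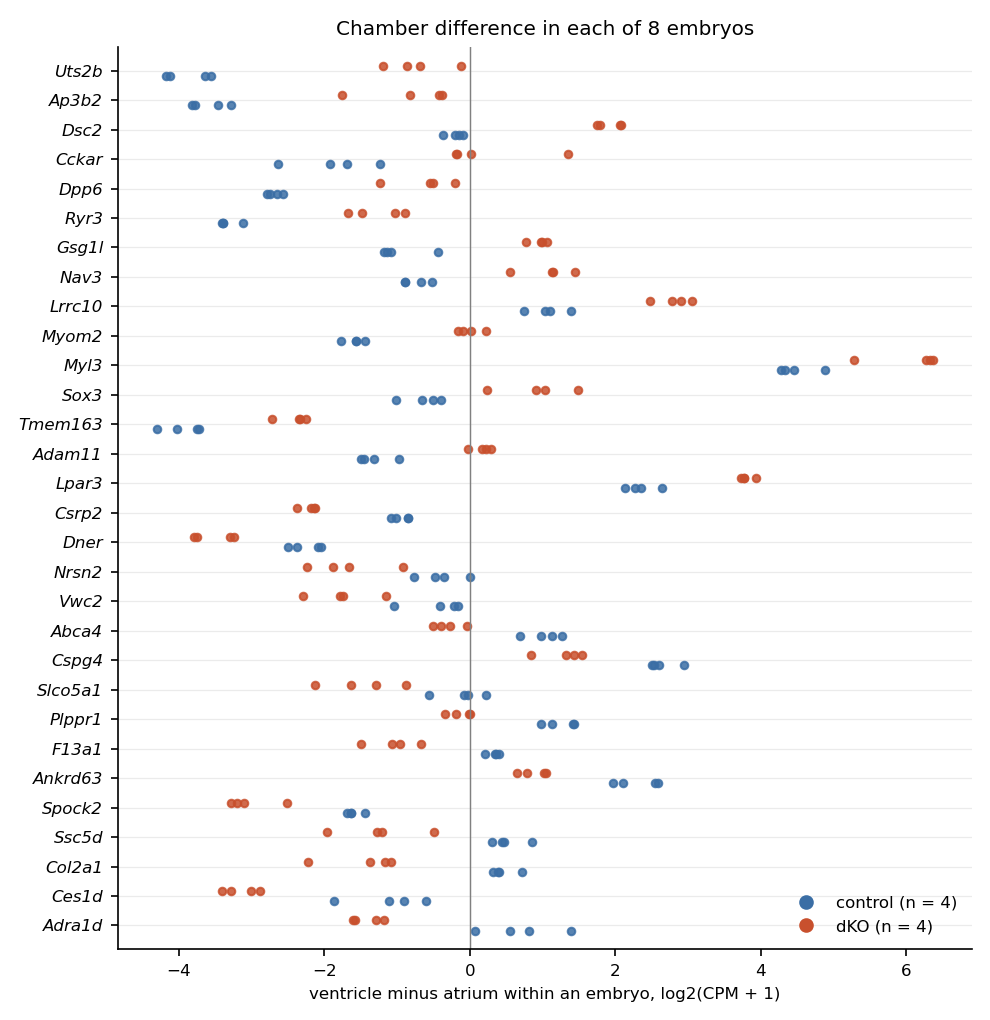
Ventricle-minus-atrium difference, log2(CPM + 1), in each of 4 control (blue) and 4 dKO (red) embryos for the 15 genes with the largest rise and the 15 with the largest fall of that difference. Control and dKO points do not overlap for any of the 30 genes, which was a condition of their choice, and the smallest gaps between groups are seen in genes such as Vwc2 and Nrsn2.

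In 5 called genes the genotype difference was called in both chambers with opposite signs. Adra1d (ENSMUSG00000027335, chromosome 2, 131545850 to 131562283, minus strand), an alpha-1 adrenergic receptor, had 1.1, 1.3, 1.96 and 1.16 CPM in the control atria and 4.87, 5.25, 3.37 and 3.78 CPM in the dKO atria. In the ventricles it had 2.68, 5.03, 2.12 and 2.18 CPM in controls and 0.93, 1.09, 0.78 and 1.11 CPM in dKO embryos. Each dKO value lay outside the control range of its chamber, above it in atria and below it in ventricles. The difference went from 0.71 to -1.41 (change -2.12, SE 0.27, adjusted p = 0.000713). Mpped2, a metallophosphoesterase, rose in atria by 0.84 and fell in ventricles by 0.29, with a change of -1.13. Ephb3, an ephrin receptor, rose in atria by 0.39 and fell in ventricles by 0.41 (change -0.80). Atp1b1, the beta-1 subunit of the sodium-potassium pump, rose in atria by 0.29 and fell in ventricles by 0.21 (change -0.50). Nlrp10, of the NLR family, went the other way, with -0.46 in atria, 0.50 in ventricles and a change of 0.95. In the remaining 35 genes called in both chambers the direction was shared and the size was not.

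Because MEIS proteins bind a TGACAG core, the bases before the start of the genes with the largest changes are shown, 3 in each direction, taken from RefSeq (GRCm38.p6) and shortened to the bases before the annotated starts. The rule took the first 3 in each direction that had an entry and lay on a chromosome whose sequence is printed here. Each is written 5′ to 3′ on the strand of its gene, with a TGACAG or its reverse complement CTGTCA in capitals. They are Uts2b (chr16:27370240-27370489, minus strand), Ap3b2 (chr7:81493926-81494175, minus), Dpp6 (chr5:26817107-26817202, plus, at 1 of 3 annotated starts), Spock2 (chr10:60106007-60106218, plus), Ankrd63 (chr2:118703964-118704213, minus) and F13a1 (chr13:37050245-37050494, minus).
Uts2b: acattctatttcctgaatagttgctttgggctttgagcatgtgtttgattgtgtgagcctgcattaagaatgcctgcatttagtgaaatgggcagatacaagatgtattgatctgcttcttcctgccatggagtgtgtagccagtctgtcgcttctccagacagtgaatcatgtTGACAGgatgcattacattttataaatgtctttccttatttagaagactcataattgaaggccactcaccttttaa
Ap3b2: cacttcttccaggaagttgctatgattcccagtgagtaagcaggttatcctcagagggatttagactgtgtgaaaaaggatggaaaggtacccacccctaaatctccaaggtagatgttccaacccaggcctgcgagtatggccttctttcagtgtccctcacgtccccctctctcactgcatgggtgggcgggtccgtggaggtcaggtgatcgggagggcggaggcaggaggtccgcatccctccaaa
Dpp6: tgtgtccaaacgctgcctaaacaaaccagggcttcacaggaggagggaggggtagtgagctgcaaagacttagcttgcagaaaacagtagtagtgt
Spock2: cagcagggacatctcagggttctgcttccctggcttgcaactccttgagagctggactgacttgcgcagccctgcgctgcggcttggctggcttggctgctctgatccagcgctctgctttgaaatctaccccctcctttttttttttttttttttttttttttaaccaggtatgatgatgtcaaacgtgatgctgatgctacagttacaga
Ankrd63: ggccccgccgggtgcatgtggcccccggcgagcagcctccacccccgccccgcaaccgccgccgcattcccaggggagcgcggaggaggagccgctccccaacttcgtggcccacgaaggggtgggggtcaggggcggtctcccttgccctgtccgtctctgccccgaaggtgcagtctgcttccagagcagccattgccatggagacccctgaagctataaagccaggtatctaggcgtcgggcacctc
F13a1: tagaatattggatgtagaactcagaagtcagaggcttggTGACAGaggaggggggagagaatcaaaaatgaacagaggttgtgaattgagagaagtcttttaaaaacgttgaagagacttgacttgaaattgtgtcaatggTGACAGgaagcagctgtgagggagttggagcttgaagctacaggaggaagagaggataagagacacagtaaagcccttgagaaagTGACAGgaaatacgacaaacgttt
The core occurs in the window of Uts2b (1 match) and of F13a1 (3 matches) and in no printed window of the other 4. Over all windows of 250 bases, 13.8% of those of called genes (251 of 348 genes had an entry, with 349 windows) held at least 1 match on either strand. The share was 13.9% for tested genes and 15.9% for the whole table. Among called genes it was 16.2% where the difference was higher and 10.5% where it was lower. A match is a description of the letters, not a binding site.

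The contractile and electrical genes of heart muscle were counted by list, against a background of 1.27% of genes called higher and 1.24% called lower. Of 15 ventricular myocyte markers 5 had a higher difference (Lrrc10, Myl3, Cited1, Gja1 and Fhl2) and none a lower one, with a median change of 0.31. Between genotypes, 7 of the 15 were called lower and 1 higher in atria, and 5 lower and 1 higher in ventricles. The shares of all genes were 7.47% and 2%. The summed level of the list was 25360 to 27590 CPM in the control ventricles and 23020 to 24660 CPM in the dKO ventricles. In the atria it was 3444 to 5111 and 3699 to 4474 CPM, which overlap. Cited1, a transcriptional co-regulator, had 58.6, 60.4, 74.3 and 80.7 CPM in the control atria and 24.2, 13.1, 15 and 22.4 CPM in the dKO atria, and its difference rose by 1.21 (SE 0.15, adjusted p = 0.000428). The named members did not all move alike: Myl2, the ventricular regulatory light chain, had a change of -0.89 (adjusted p = 0.0834) and Irx4, a ventricular transcription factor, of -0.41 (0.267). Of 19 atrial myocyte markers 2 were higher (Nppa and Kcnj5), which for atrial genes is a narrower difference, and the list median was 0.28. In ventricles 7 of these 19 atrial markers were called higher in dKO embryos and none lower, where 2% of all genes were called in either direction. In atria, where 7.47% of all genes were called, 4 of the 19 were called higher and 3 lower. The summed level of the list was 15820 to 17520 CPM in the control atria and 19570 to 23290 CPM in the dKO atria. In ventricles the sum was 3379 to 4198 CPM in controls and 6979 to 7679 CPM in dKO embryos, of which Nppa alone averaged 744.5 and 2722 CPM. Myl4, the atrial essential light chain, rose in ventricles by 0.46 (adjusted p = 0.00124), and Gja5, the gap junction protein connexin 40, by 0.67 (0.000416). Their changes in chamber difference, 0.42 and 0.36, were not called (0.0607 and 0.125).

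Of 30 sarcomere genes 4 had a higher difference (Myl3, Myom2, Tnnt1 and Tmod1) and none a lower one. Tmod1, which caps the pointed ends of thin filaments, had 244 to 301 CPM in the control atria and 142 to 159 CPM in the dKO atria, while the ventricles overlapped (307 to 349 and 299 to 320 CPM). Its difference rose from 0.30 to 1.01 (change 0.71, SE 0.07, adjusted p = 8.09e-05). Tnnt1, the slow skeletal troponin T, had a change of 1.11 and fell in the dKO atria by 1.55. Of 25 calcium handling genes 4 were higher (Ryr3, Camk2a, Camk2d and Cacna1c). Camk2a, a calmodulin-dependent kinase, had 105 to 123 CPM in the control atria and 70.9 to 81.4 CPM in the dKO atria, with a change of 0.41 (SE 0.07, adjusted p = 0.00591). Camk2d changed by 0.32 and lost its call in 9 of 25 other settings. Atp2a2, the calcium pump of the sarcoplasmic reticulum, lost most of its atrial excess, from -0.49 to -0.05, but the change of 0.44 was not called (adjusted p = 0.0513).

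Of 22 potassium channel genes tested 5 had a higher difference and none a lower one, with a median change of 0.30. At an unadjusted p under 0.05 there were 16, against 1832 of all 13950 genes. Averaged over the list, the chamber difference was -0.05 to 0.06 in the control embryos and 0.39, 0.24, 0.28 and 0.29 in the dKO embryos. Abcc9, a regulatory subunit of ATP-sensitive potassium channels, had 86.1, 83.4, 87.4 and 86.0 CPM in the control atria and 40.2, 42.8, 37.9 and 35.6 CPM in the dKO atria, and its ventricular difference widened from 0.97 to 1.81 (change 0.84, SE 0.09, adjusted p = 0.000135). Its paralog Abcc8, the atrial counterpart here, narrowed from -2.11 to -1.10 (change 1.0, SE 0.15, adjusted p = 0.00266). Kcnj5, a subunit of the acetylcholine-gated channel, had 58.4 to 64.3 CPM in the control ventricles and 74.1 to 87.6 CPM in the dKO ventricles, a rise of 0.35 (adjusted p = 0.0059), and its chamber difference changed by 0.58 (0.00374). Kcnq1, the pore of the slow delayed rectifier, changed by 0.63 (adjusted p = 0.0189) and was lower in the dKO embryos of both chambers.

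Of 18 intercalated disc and gap junction genes 3 were higher (Dsc2, Gja1 and Xirp2) and none lower, and the list average was 0.16 to 0.27 in controls and 0.48 to 0.67 in dKO embryos. Gja1, which encodes connexin 43, had 195, 191, 166 and 221 CPM in the control atria and 80.2, 61.5, 80.7 and 69.9 CPM in the dKO atria. In the ventricles it had 414 to 449 CPM in controls and 326 to 363 CPM in dKO embryos, so that both chambers fell and the atrium fell further. The difference widened from 1.16 to 2.22 (change 1.06, SE 0.11, adjusted p = 0.000126). Among 17 conduction and pacemaker genes tested 1 was higher and 1 lower. Etv1, a transcription factor of fast-conducting atrial muscle, had 67.1 to 80.8 CPM in the control atria and 35.6 to 55.2 CPM in the dKO atria, and its atrial difference went from -1.0 to -0.06 (change 0.94, SE 0.11, adjusted p = 0.000276). Hcn4, the pacemaker channel, became more atrial, from -2.25 to -2.81 (change -0.56, adjusted p = 0.0224), and lost its call in 8 of 25 other settings.

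Of 30 cardiac transcription factors 2 were called, Tbx20 and Mef2a, both higher. Tbx20, a T-box factor, had chamber differences of 0.04, -0.06, 0.10 and -0.01 in controls and 0.41, 0.32, 0.50 and 0.70 in dKO embryos (change 0.46, SE 0.08, adjusted p = 0.00842), and rose in ventricles by 0.35 (0.0109). Mef2a, a MADS-box factor, changed by 0.36 (adjusted p = 0.0123) and lost its call in 4 of 25 other settings. Of 16 genes of the trabecular and compact layers 3 were higher, all of them named above (Nppa, Tbx20 and Cited1). Of 17 natriuretic peptide and stress genes 4 were higher (Nppa, Corin, Hspb7 and Hspb1). Corin, the protease that activates the natriuretic peptides, had 191 to 231 CPM in the control atria and 75.8 to 108 CPM in the dKO atria, with a narrower atrial difference of -0.34 against -1.16 (change 0.82, SE 0.12, adjusted p = 0.00201). Hspb7, a small heat-shock protein of muscle, had 629 to 802 CPM in the control atria and 349 to 413 CPM in the dKO atria and a change of 0.77 (adjusted p = 0.000315).

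Guidance molecules gave 5 higher and no lower calls among 30 genes, with a list median of -0.06. Efnb3, an ephrin ligand, had 45.8, 50.6, 40.4 and 51.7 CPM in the control atria and 7.58, 9.62, 11.3 and 13.1 CPM in the dKO atria. Its ventricles also fell, from 102 to 122 CPM in controls to 62.0 to 68.2 CPM in dKO embryos, and the difference widened from 1.26 to 2.58 (change 1.31, SE 0.11, adjusted p = 3.05e-05). Ntn1, the secreted cue netrin 1, had 75.6 to 106 CPM in the control atria and 37.4 to 61.4 CPM in the dKO atria, with overlapping ventricles and a change of 1.14. Sema6d, Slit3 and Epha4 had changes of 0.63, 0.80 and 0.58. For Epha4 the move was in the ventricle (0.55, adjusted p = 0.0283) and not in the atrium (-0.03, 0.922).

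Of 27 Wnt genes tested 7.41% were called, against 2.51% of all genes. Wnt5a, a non-canonical ligand, was higher (0.46) and Sfrp1, a secreted Wnt antagonist, lower (-0.52), and they lost their calls in 6 of 24 and 5 of 25 other settings. Of 26 BMP and TGF-beta genes (11.5% called) 1 was higher and 2 lower. Bmp5, a BMP ligand, had 30.7 to 40.7 CPM in the control atria and 15.49 to 22 CPM in the dKO atria and turned from -0.60 to 0.31 (change 0.92, SE 0.12, adjusted p = 0.000713). Smad7, an inhibitor of the pathway, and Id1, one of its target genes, changed by -0.47 and -0.53, and Id1 lost its call in 13 of 24 other settings. None of 17 Notch genes was called in limma's test (3 at an unadjusted p under 0.05, against 1832 of all 13950 genes). Hey2 stood at -0.39 (adjusted p = 0.381) and Notch1 at -0.11 (0.88). None of 13 retinoic acid genes tested was called (4 at an unadjusted p under 0.05), with Rxra at 0.18 (adjusted p = 0.376).

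Fatty acid and glycolysis genes were called at 7.69% and 8.70%, against 2.51% of all genes. In the dKO atria, where 7.47% of all genes were called, 5 members of each list were called lower and none higher. In the dKO ventricles, where 2% of all genes were called, 2 glycolysis genes and no fatty acid gene were called lower, and none higher. Of 26 fatty acid genes Esrrg, a nuclear receptor of oxidative metabolism, and Fabp3, the fatty acid binding protein of heart, were higher, by 0.59 and 0.49. Fabp3 lost its call in 14 of 25 other settings and Esrrg in 2 of 24. Of 23 glycolysis genes Hk1 and Eno3, a hexokinase and the muscle enolase, were higher by 0.39 and 0.33, and Eno3 lost its call in 11 of 25 other settings. None of 33 nuclear oxidative phosphorylation genes, 13 mitochondrially encoded genes and 29 cell cycle genes was called in limma's test. At an unadjusted p under 0.05 there were 1, 1 and 2, against 1832 of all 13950 genes. The list medians were 0.06, 0.12 and 0.01. Atp5b, the catalytic subunit of ATP synthase, had a chamber difference of 0.48 in controls and 0.51 in dKO embryos, and Top2a, a DNA topoisomerase of dividing cells, 0.56 and 0.58.

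**Figure D5:**
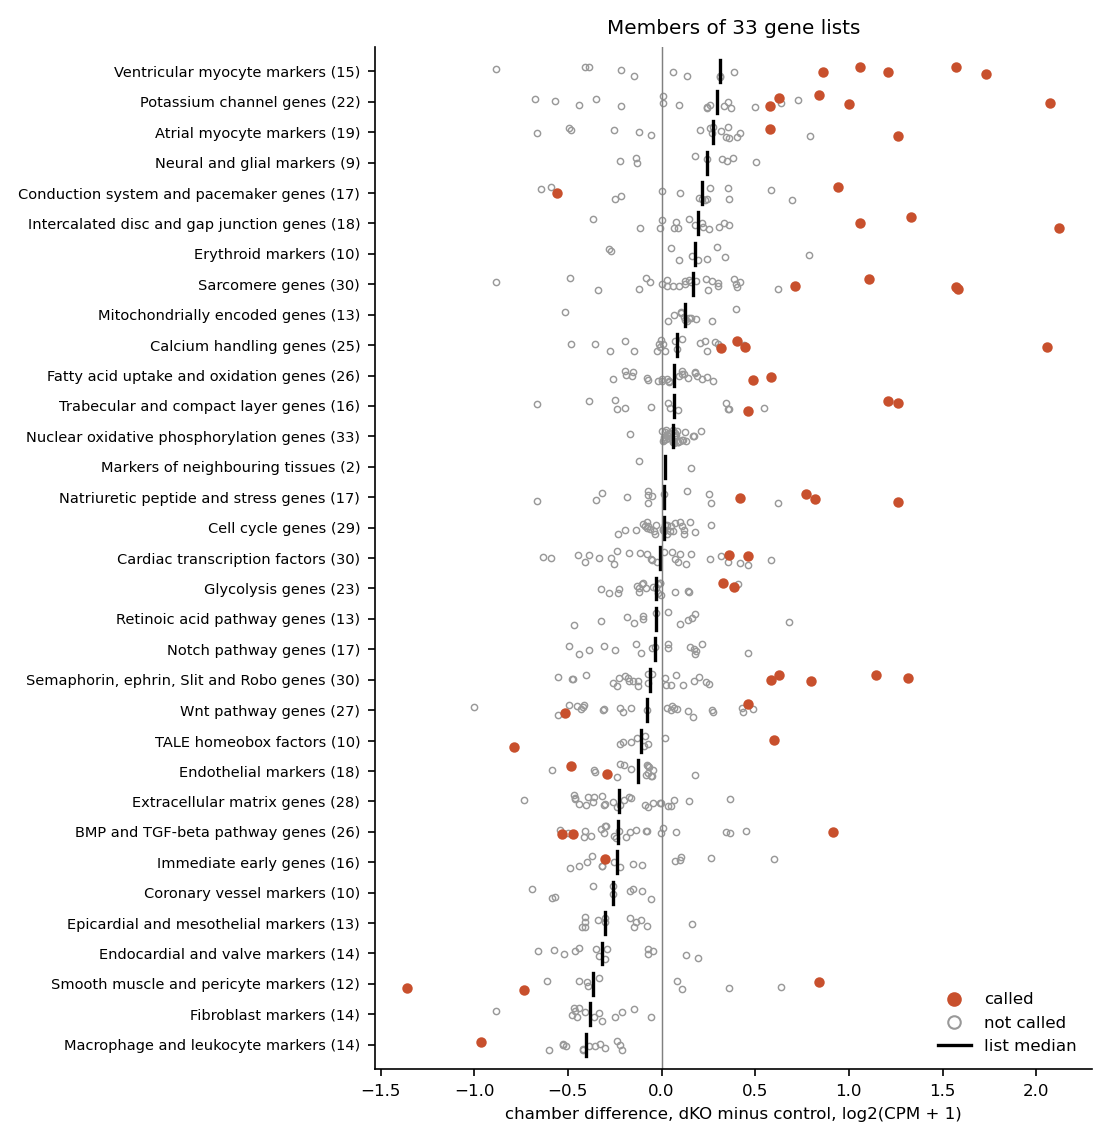
Change of the chamber difference (dKO minus control, log2(CPM + 1)) for every tested member of 33 gene lists, with the number tested in parentheses, called members filled and list medians as black bars. The ventricular myocyte and potassium channel lists have the highest medians, 0.31 and 0.30, and the fibroblast and macrophage lists the lowest, -0.38 and -0.40, with few or no called members.

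Markers of cells other than cardiomyocytes were called at 25% (smooth muscle and pericyte), 11.1% (endothelial) and 7.14% (macrophage), against 2.51% of all genes. The other such lists gave no call. The smooth muscle and pericyte calls were Cspg4 and Acta2, both lower, and Abcc9, which was higher and is also counted among the potassium channel genes above. In atria 7.47% of all genes were called between genotypes. There 4 of 12 smooth muscle and pericyte, 3 of 14 fibroblast, 3 of 10 coronary vessel and 2 of 14 macrophage markers were called higher. Of these lists only the first held a gene called lower (1). Of 18 endothelial markers 2 were called higher and 1 lower. The list values of dKO embryo 1 often lay apart from those of the other dKO embryos. None of 14 fibroblast markers was called in limma's test (6 at an unadjusted p under 0.05, against 1832 of all 13950 genes). All 14 changes were below 0, from -0.88 to -0.06 with a median of -0.38. Averaged over the list the difference was -0.44 to -0.19 in controls and -0.07, -0.94, -0.70 and -1.08 in dKO embryos 1 to 4, so that dKO embryo 1 lay above all controls and the other 3 below. The summed fibroblast level was 5870 to 7760 CPM in the control atria, 6806 to 11220 CPM in the dKO atria, 4419 to 5030 CPM in the control ventricles and 4078 to 5132 CPM in the dKO ventricles. Of 14 macrophage and leukocyte markers tested Lyz2, lysozyme, was called: it had differences of 0.59, 0.68, 0.94 and 0.92 in controls and -0.10, -0.38, -0.03 and -0.21 in dKO embryos (change -0.96, SE 0.14, adjusted p = 0.00165). Lyz2 was not called within the second title number (-0.84, adjusted p = 0.0729), nor with no block or a random block for the embryo (0.14 and 0.0775). All 14 macrophage changes were below 0, from -0.96 to -0.21. The list average was -0.323 to -0.130 in controls and -0.318, -0.748, -0.762 and -0.915 in dKO embryos 1 to 4, so that dKO embryo 1 lay within the control range. The summed level was 135 to 160 CPM in the control atria and 138 to 222 CPM in the dKO atria. No defining marker of either list was at 0: Col1a1 averaged 2043 CPM in the control atria and Csf1r 34.9 CPM.

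Of 18 endothelial markers Cd34 and Pecam1 were lower (-0.48 and -0.29), and Pecam1 lost its call in 14 of 25 other settings. The endothelial average was 0.23 to 0.28 in controls and 0.10, -0.03, 0.14 and 0.09 in dKO embryos, and the summed level 1545 to 1587 CPM in the control atria and 1507 to 1903 CPM in the dKO atria. Of 12 smooth muscle and pericyte markers Cspg4 and Acta2 were lower and Abcc9 higher. Acta2, smooth muscle actin, which embryonic cardiomyocytes also express, had 507, 438, 435 and 404 CPM in the control atria and 722, 779, 931 and 920 CPM in the dKO atria. Its ventricular difference narrowed from 1.59 to 0.86 (change -0.74, SE 0.10, adjusted p = 0.00125). None of 13 epicardial, 14 endocardial and valve, 10 coronary vessel or 28 extracellular matrix genes was called in limma's test. At an unadjusted p under 0.05 there were 3, 5, 4 and 13, against 1832 of all 13950 genes. The list medians were -0.30, -0.32, -0.26 and -0.23. Neural, erythroid and neighbouring-tissue markers gave no calls and none at an unadjusted p under 0.05 among the 9, 10 and 2 tested, with medians of 0.24, 0.18 and 0.02. Hbb-bs, a globin, stood at 855 to 2015 CPM over the 16 libraries and Cidea, of brown fat, at 1.61 to 6.90 CPM. Klf6 was the only call among 16 immediate early genes (-0.30), lost in 13 of 25 other settings. Whether the non-muscle markers that moved with genotype take part in the muscle gene results was not tested.

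Counted within single embryos, more genes were higher in the atrium by at least 2-fold on the log2(CPM + 1) scale in dKO embryos: 670, 643, 653 and 621 in the controls and 701, 892, 769 and 832 in the dKO embryos (exact permutation test, two-sided p = 0.0286, the smallest possible). The groups did not overlap when reads were thinned to the shallowest library (672 to 733 and 739 to 915), nor with a minimum mean of 5 CPM (375 to 407 and 437 to 556), but did with a minimum of 50 CPM (76 to 92 and 89 to 123, exact permutation p = 0.0857). The count higher in the ventricle was 347 to 401 in controls and 345 to 486 in dKO embryos (exact permutation p = 0.314). The spread of the chamber difference over all genes, as an SD, was 0.59 to 0.61 in controls and 0.61 to 0.66 in dKO embryos (exact permutation p = 0.0857). With Benjamini-Hochberg adjustment over these 3 embryo values, the exact p-values were 0.0857 for the atrial count, 0.129 for the spread and 0.314 for the ventricular count. The alternatives for the atrial count were chosen after seeing the data.

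Several named genes share exon sequence with a gene on the opposite strand, and the sources used here do not say whether counting used strand. Among the 13 named genes concerned are Ryr3 with Aven, Myl3 with Pth1r, Tmem163 with Mgat5, Nppa with Gm13054, Mef2a with Lysmd4, Tmod1 with Tstd2, Fabp3 with Zcchc17, Notch1 with 0610009E02Rik and Gm13568, Cd34 with Gm16897, Atp1b1 with Nme7 and Mest with Copg2. Without strand, how reads from the shared stretch were divided between the genes is uncertain. Mest, an imprinted hydrolase gene and the called gene with the highest mean level after Nppa, had a change of 0.78 (SE 0.12, adjusted p = 0.00283) and fell in atria by 0.65.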

How the data were processed

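RNA of the atria and of the ventricles of 8 embryos was sequenced as single reads after polyA selection, per the labels' protocols. Adapters were trimmed with cutadapt and reads counted with RSEM 1.3.1 on GRCm38, per the submitters' processing notes. The authors deposited CPM for 16118 genes. Their normalization, gene filter, annotation release and strand setting were not given in the sources used here. In each library 100% of the deposited CPM values were a whole number of reads plus 0.5 times a fixed step (tolerance 0.001 reads), which gave the depths.

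Tests took the 13950 genes that averaged 1 CPM or more across 16 libraries. With limma 3.58.1 in R 4.3.3, the 8 within-embryo differences of log2(CPM + 1) were compared between genotypes, with a prior variance that follows the mean level, two-sided, adjusted by Benjamini-Hochberg over all genes tested and called under 0.05. A fold on this scale understates changes of low genes. The pairing of the chambers comes from the shared animal, and the consensus correlation within embryos was 0.108. edgeR 4.0.16, DESeq2 1.42.0 and limma-voom were run on recovered reads as alternatives, and the fits were tested on simulated data. Genes were named by rule: the targeted genes, the 15 largest changes each way without overlap between groups and with an ordinary symbol, up to 3 called members of each of 33 lists (the 2 with the highest levels where none was called), up to 6 genes that turned sign, up to 6 with opposite effects in the chambers, and the 5 called genes with the highest level. Gene names outside this rule were chosen after their values were seen. The members and lists were chosen with earlier results of these data known. Positions and overlaps come from GENCODE M21, which matched 16096 identifiers. SEs rest on the spread between embryos, moderated toward the prior variance, so they can be smaller or larger than a gene's own spread gives. The floors of 3 reads cover counting error only. Some genes that the naming rule took are not reported here.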

Additional observations from a re-analysis of the deposited data

Results flagged for a closer look

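In groups of 4 embryos, 9 of 148 groups tested held an embryo far from the other 3 by Dixon's criterion, where chance gives about 1 in 20. Among the targeted genes, dKO embryo 4 had a Meis1 difference of 0.30 (the others 0.72 to 0.79) and dKO embryo 1 a Meis2 difference of 0.0896 (the others -0.28 to -0.26). In dKO embryo 1 the difference was 1.35 for Cckar (others -0.19 to 0.02), 5.28 for Myl3 (6.28 to 6.37) and 1.21 for Hk1 (1.06 to 1.08). In control embryo 3 it was -3.12 for Ryr3 (others -3.40 to -3.39), -0.43 for Gsg1l (-1.19 to -1.08) and 0.27 for Camk2a (0.10 to 0.12). In control embryo 1 it was 2.0 for Cd34 (others 1.64 to 1.66).

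The genotype effect differed between the chambers, by limma's test of that difference, for 350 genes. In 5 of them the effect was called in both chambers with opposite signs. The changes in chamber difference were 0.95 for Nlrp10, -2.12 for Adra1d, -1.13 for Mpped2, -0.80 for Ephb3 and -0.50 for Atp1b1.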

How the results depend on the processing

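The number of called genes was 148 (81 higher, 67 lower) with a minimum mean of 50 CPM, where 3622 genes were tested. It was 227 (103 lower) without a trend in the prior variance. With the title number of each embryo as a covariate it was 600 (337 lower). In that fit dKO embryo 1, alone in its number, adds nothing to the genotype contrast. The causes of the last 2 counts were not tested. Leaving out 1 embryo at a time gave 221 to 444 genes, 119 to 186 higher and 98 to 258 lower. The other settings stayed within 1.5 times the 350. As to the pairing of the chambers by embryo, the count was 294 with no replicate block and 368 with the embryo as a random replicate block. Hcn4, Wnt5a, Smad7, Fabp3, Eno3, Pecam1 and Lyz2 lost their call with no replicate block, and of these Hcn4 (adjusted p = 0.0608), Eno3 (0.069) and Lyz2 (0.0775) also with the random block. Meis1 lost its call with thinned reads (0.56, adjusted p = 0.0533) and without the trend (0.60, adjusted p = 0.0708), and its value without each embryo in turn was 0.53 to 0.71. Meis2 kept its call in every setting that was run, with -0.88 to -0.73 without each embryo in turn. Over the named genes, 2180 fits stayed on their side of the threshold, 154 lost the call and 9 gained it. Of the named called genes 0 turned sign in any setting, and of the named uncalled genes 7 did (Notch1, Top2a, Atp5b, mt-Co1, Tbx18, Stmn2 and Afp). Of all 350 called genes, 348 kept their sign with edgeR, 349 with DESeq2 and 349 with limma-voom. Of 72 named called genes beside Meis1 and Meis2, 44 lost their call in none of up to 25 settings. Without dKO embryo 1 the higher calls went from 177 to 186 and the lower from 173 to 258, so that the share of higher calls was 41.9% against 50.6%. Values under the floor of 3 reads (0.110 to 0.312 CPM) limit the folds of Uts2b and Ap3b2.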

Other observations

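Some called genes outside the lists share a family, and the following were picked after their values were seen, so no count or test of the family is given. Among imprinted genes, whose expression depends on the parent of origin, 3 neighbours in the Peg3 domain lost part of their atrial excess beside Mest. Zim1 averaged 281 CPM in the control atria and 120 CPM in the dKO atria, and its difference went from -2.71 to -1.76 (change 0.95, limma adjusted p = 0.0051). Peg3, a zinc finger gene, averaged 701 and 482 CPM in the atria and changed by 0.47 (adjusted p = 0.00447), and Usp29 changed by 0.66 (adjusted p = 0.006). In ventricles none of these 3 was called between genotypes.

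Of single genes that make or break down cyclic nucleotides, the cAMP-forming Adcy1 and Adcy5 fell in the dKO atria by 0.81 and 0.60, and their chamber differences changed by 0.93 and 0.44. The phosphodiesterase gene Pde3b fell in atria by 0.91 and in ventricles by 0.36, with a change of 0.55. The subunits of soluble guanylate cyclase, Gucy1a3 and Gucy1b3, rose in atria by 0.41 and 0.43, with changes of -0.37 and -0.34.

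Myosin and troponin genes best known from skeletal muscle moved in both directions. Myl1 varied widely between embryos, with 71.2, 185, 218 and 432 CPM in the control atria and 167, 25.7, 30.9 and 159 CPM in the dKO atria, which overlap, yet its chamber difference changed by 1.3 (adjusted p = 0.00855). Myh7b, ventricular in both genotypes, went from 1.82 to 2.91 (adjusted p = 0.000645). Tnni2 went the other way, from 2.03 to 0.98 (change -1.05, adjusted p = 0.00923).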
